A study of Mus musculus with 12 samples.

Results

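The Ly6 surface antigen family was followed as 7 genes, Ly6g, Ly6c2, Ly6c1, Ly6a, Ly6e, Ly6d and Ly6i, taken by symbol from the 54104 Ensembl genes of an expression matrix. All 7 were present and all 7 passed the expression filter, Ly6d through its spleen libraries alone. The data were bulk RNA sequencing of 12 mouse libraries in 4 groups of 3, titled Ly6C tumor, Ly6C spleen, Ly6G tumor and Ly6G spleen. The series describes the cells as monocytic and polymorphonuclear myeloid-derived suppressor cells (M-MDSCs and PMN-MDSCs), immature myeloid cells that accumulate in mice with tumors. All groups came from mouse, and the labels give only the marker, the tissue and a number from 1 to 3. Strain, age, tumor model, sorting gate and number of animals are not given in the labels, and no library is labelled as treated. Nothing says that the 3 libraries of a group came from separate animals, so each p-value measures only the spread between these libraries, which may be technical.

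Ly6 genes encode small, cysteine-rich proteins that share a fold with the urokinase receptor and are held on the outer cell surface by a glycosylphosphatidylinositol (GPI) lipid anchor. In mouse they are used chiefly as antibody markers of blood lineages. Ly6G marks neutrophils and PMN-MDSCs. The Ly6C antigen, the product of the near-identical genes Ly6c1 and Ly6c2, is high on inflammatory monocytes and M-MDSCs and is also carried at a lower level by neutrophils. Ly6a encodes Sca-1, the stem cell antigen. Ly6d marks B-lymphoid commitment and is also found on keratinocytes. Ly6e is widely expressed and is the receptor for the placental fusion protein syncytin-A in mouse. Several members are known interferon-responsive genes.

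The 7 genes lie on chromosome 15 (GRCm38) within a span of 397 kb, from the start of Ly6d at 74762056 to the end of Ly6g at 75159126. Ly6c1 (ENSMUSG00000079018) spans 75044018 to 75048830 and Ly6c2 (ENSMUSG00000022584) spans 75108158 to 75111970, both on the minus strand. Ly6g (ENSMUSG00000022582) spans 75155240 to 75159126 on the plus strand. The coding sequences of Ly6c1 and Ly6c2 were identical at 92.8% of aligned bases, and those of Ly6a and Ly6i at 86.4%. Ly6e matched no other member at more than 61.1% of bases, and Ly6d none at more than 65.5%. Of all 50-base stretches of the annotated transcripts, 32.8% in Ly6c1, 14.1% in Ly6c2 and 19.0% in Ly6a also occurred in another chromosome 15 gene, against 4.76% in Ly6i, 0.448% in Ly6g and 0 in Ly6d and Ly6e. Levels of Ly6c1, Ly6c2 and Ly6a are therefore uncertain to the extent that the authors' counting could divide shared fragments between paralogs.

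Promoter windows were held for Ly6g, Ly6c1 and Ly6c2 in the RefSeq table used here (GRCm38.p6), so 3 of the 7 genes matched. They are shown because these genes share sequence and behaved differently between tissues. Each window runs 5′ to 3′ on the gene's own strand, with the transcription start 50 bases before its end. Capitals mark matches, on either strand, to a PU.1 core (GAGGAA), a C/EBP core (TTGCNNAA) or a TATA box (TATAAA).
Ly6g, chr15:75155011-75155310, plus strand: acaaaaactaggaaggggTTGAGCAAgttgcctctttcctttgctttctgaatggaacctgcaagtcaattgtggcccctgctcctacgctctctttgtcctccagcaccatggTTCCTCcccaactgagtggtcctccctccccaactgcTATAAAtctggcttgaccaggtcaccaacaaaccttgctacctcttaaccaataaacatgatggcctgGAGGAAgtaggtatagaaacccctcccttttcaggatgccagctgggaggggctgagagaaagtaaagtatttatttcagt
Ly6c1, chr15:75048788-75049087, minus strand: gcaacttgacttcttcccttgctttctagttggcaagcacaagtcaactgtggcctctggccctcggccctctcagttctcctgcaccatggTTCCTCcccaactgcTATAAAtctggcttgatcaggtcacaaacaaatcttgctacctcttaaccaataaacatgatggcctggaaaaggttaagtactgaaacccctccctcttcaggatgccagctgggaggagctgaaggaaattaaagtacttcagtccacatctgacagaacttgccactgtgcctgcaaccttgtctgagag
Ly6c2, chr15:75111922-75112221, minus strand: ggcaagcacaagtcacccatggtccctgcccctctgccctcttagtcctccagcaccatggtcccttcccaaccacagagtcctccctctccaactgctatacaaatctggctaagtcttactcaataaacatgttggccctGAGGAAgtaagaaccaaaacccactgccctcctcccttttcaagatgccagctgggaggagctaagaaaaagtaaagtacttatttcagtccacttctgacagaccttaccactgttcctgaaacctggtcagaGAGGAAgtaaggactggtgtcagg

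The aligned parts of these windows were identical at 84.0% of bases for Ly6g with Ly6c1, 82.5% for Ly6g with Ly6c2 and 78.2% for Ly6c1 with Ly6c2. The PU.1 core, the letters bound by a myeloid and B-cell transcription factor, occurred 2 times in Ly6g, 1 time in Ly6c1 and 2 times in Ly6c2, and 28.3% of all 32851 mouse windows held it. In Ly6c2, 1 of these matches began after the transcription start, at base 26. TATAAA occurred 1 time each in Ly6g and Ly6c1 and not in Ly6c2 (13.6% of windows). It began at -99 in Ly6g and -143 in Ly6c1 from the start, and its use was not tested. The C/EBP core occurred 1 time in Ly6g (10.8% of windows). The core of the interferon-stimulated response element, searched as GAAA and GAAA with any 2 bases between them (3.44% of windows), and the core of the gamma-activated site, TTCNNNGAA (8.30% of windows), did not occur in these 3 windows.

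Values are FPKM, fragments per kilobase of gene scaled to the library's mapped fragments, as the authors deposited them. Total FPKM per library was 331681 to 449309 and 10379 to 12337 genes reached 1 FPKM. The number of sequenced fragments is not given, so no counting error could be attached. Libraries of a group correlated at r = 0.970 to 0.986 across genes. Tumor libraries held far less leukocyte RNA than spleen libraries. The geometric mean of 20 pan-leukocyte genes was 7.26 to 13.8 FPKM in Ly6C tumor and 151 to 171 in Ly6C spleen, and 18.7 to 32.3 in Ly6G tumor and 157 to 173 in Ly6G spleen. The leukocyte phosphatase CD45 (Ptprc) was at 2.59 to 4.59 FPKM in Ly6C tumor and 26.3 to 38.2 in Ly6C spleen, and at 7.66 to 13.9 in Ly6G tumor and 34.8 to 52.5 in Ly6G spleen. The epithelial keratin Krt8 was at 576 to 770.0 FPKM in Ly6C tumor and 0 to 0.159 in Ly6C spleen, and at 356 to 574 in Ly6G tumor and 0.0725 to 0.263 in Ly6G spleen. Defining leukocyte genes were thus low in the tumor libraries and epithelial keratin was high, so the groups are called by their titles and not as cell types.

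Mitochondrial transcripts took 2.84% to 7.41% of FPKM in Ly6C tumor and 1.45% to 2.22% in Ly6C spleen, and 5.16% to 11.4% in Ly6G tumor and 1.98% to 2.29% in Ly6G spleen. The genes of the marker lists were tested in the same fit as the members, and the pairs of numbers that follow count those that passed as higher and as lower in tumor. For Ly6C tumor against Ly6C spleen, where 46.2% of all genes passed as higher and 30.5% as lower, they were 0 and 19 of 20 pan-leukocyte genes, 0 and 13 of 14 neutrophil genes, 1 and 10 of 14 monocyte genes, 1 and 5 of 11 macrophage genes and 10 and 0 of 13 mitochondrial genes. For Ly6G tumor against Ly6G spleen, where 51.5% passed as higher and 24.7% as lower, they were 0 and 19 pan-leukocyte, 0 and 13 neutrophil, 3 and 8 monocyte, 1 and 7 macrophage and 6 and 0 mitochondrial genes. With each library divided by its pan-leukocyte level, they became 3 and 7 neutrophil, 8 and 1 monocyte and 11 and 0 macrophage genes in Ly6C, and 3 and 8, 6 and 3, and 5 and 0 in Ly6G. On that scale most genes were higher in tumor, 12386 and 494 of 13610 passing as higher and lower in Ly6C, and 12030 and 569 in Ly6G. In the other lists many genes were dropped by the filter or entered it through 1 tissue, so they are given as summed FPKM. The 10 T cell genes summed to 0.564 to 0.923 FPKM in Ly6C tumor and 7.14 to 10.1 in Ly6C spleen, and to 0.923 to 1.79 in Ly6G tumor and 21.9 to 36.7 in Ly6G spleen. The 8 plasma cell genes summed to 144 to 177 FPKM in Ly6C tumor and 89.0 to 173 in Ly6C spleen, and to 136 to 197 in Ly6G tumor and 176 to 296 in Ly6G spleen. This sum joined genes that moved apart. As a description, the log2 change of Sdc1 was 6.34 in Ly6C and 5.95 in Ly6G. Those of Igkc were -4.44 and -6.71, of Jchain -3.88 and -4.99 and of Mzb1 -2.49 and -4.01. Irf4 changed by -2.17 and -2.12, and Xbp1 by -0.77 and 0.49. The 7 plasmacytoid dendritic genes, Bst2 among them, summed to 285 to 353 FPKM in Ly6C tumor and 18.0 to 62.7 in Ly6C spleen, and to 207 to 269 in Ly6G tumor and 21.8 to 47.9 in Ly6G spleen. This sum rested mainly on Bst2, which is also on the interferon list. Bst2 averaged 152 FPKM over the 12 libraries, and Runx2 and Cox6a2, the others that passed the filter, 4.28 and 1.14. Of the 7 genes, 2 were at 0 throughout Ly6C tumor and 1 throughout Ly6G tumor. The 10 erythroid genes summed to 47.1 to 58.1 FPKM in Ly6C tumor and 313 to 1166 in Ly6C spleen, and to 59.7 to 228 in Ly6G tumor and 1467 to 4185 in Ly6G spleen. Epithelial, fibroblast and endothelial genes are given with Ly6e and Ly6c1. The B cell list is given with Ly6d. In bulk libraries, fewer cells of a type and less RNA of a gene per cell cannot be told apart.

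The member that took most of the family's FPKM differed between tissues. Summed Ly6 FPKM was 423 to 650.1 in Ly6C tumor and 535 to 590.0 in Ly6C spleen, and 304 to 409 in Ly6G tumor and 1032 to 1265 in Ly6G spleen. In Ly6C tumor, Ly6e took 43.6% ± 3.39 and Ly6a 36.9% ± 7.32 of that sum, whereas in Ly6C spleen Ly6c2 took 44.4% ± 2.89 and Ly6g 30.0% ± 8.23 (SD, n = 3 each). In Ly6G tumor, Ly6e took 39.0% ± 4.34 and Ly6a 29.2% ± 7.18, whereas in Ly6G spleen Ly6g took 58.0% ± 1.73 and Ly6c2 19.4% ± 5.24. Ly6c1 took 15.3% ± 3.68 in Ly6C tumor and 2.59% ± 0.251 in Ly6C spleen, and 16.7% ± 4.05 in Ly6G tumor and 0.761% ± 0.237 in Ly6G spleen.

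**Figure D1:**
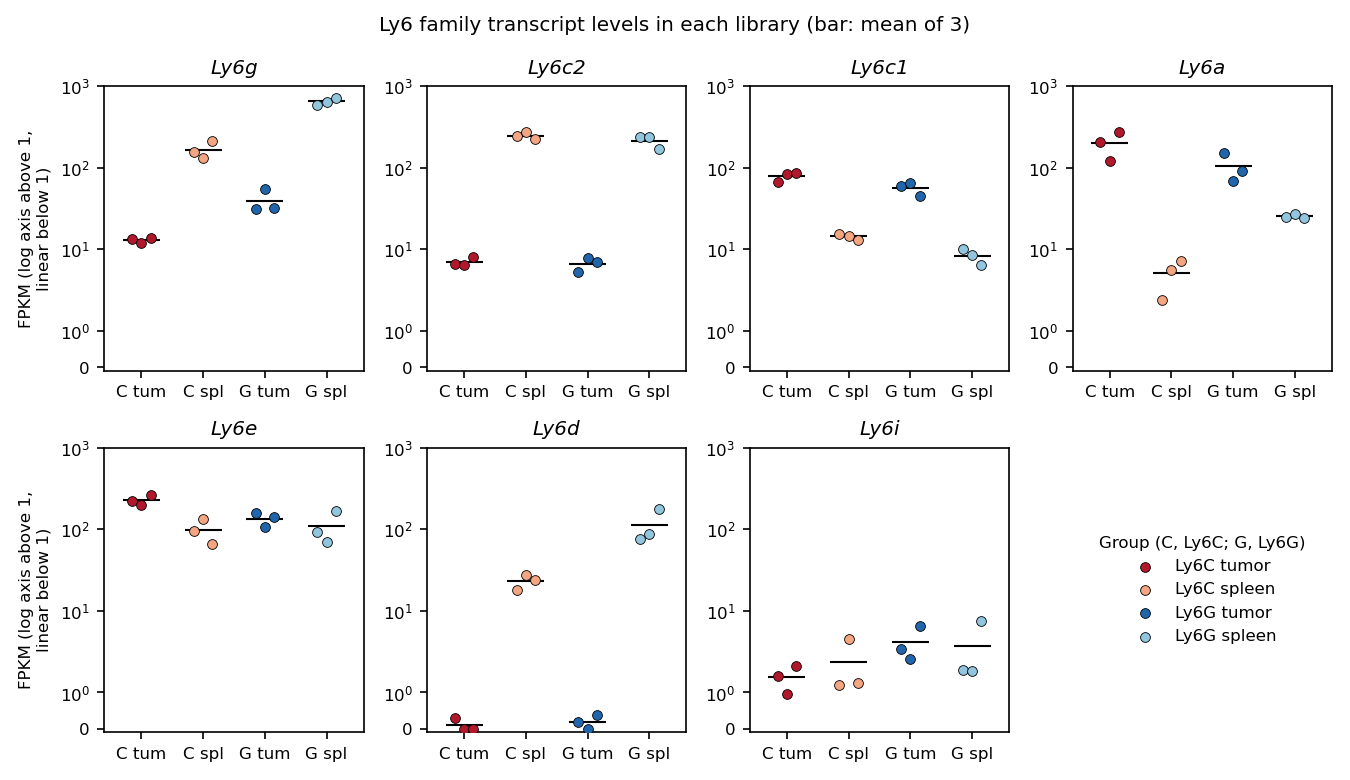
FPKM of each member in each of the 12 libraries, one panel per gene; points are libraries, bars are means of 3, and the vertical axis is logarithmic above 1 and linear below. Ly6g, Ly6c2 and Ly6d sit lower in tumor than in spleen and Ly6c1 and Ly6a sit higher, with no overlap, while Ly6i spans 0.952 to 7.51 FPKM with the tissues overlapping under each label.

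Ordered by level, Ly6e (228 FPKM), Ly6a (200.1), Ly6c1 (78.8), Ly6g (12.97), Ly6c2 (7.05) and Ly6i (1.56) followed each other in Ly6C tumor, with Ly6d last. In Ly6C spleen the order was Ly6c2 (247), Ly6g (166), Ly6e (98.5), Ly6d (23.2), Ly6c1 (14.4), Ly6a (5.08) and Ly6i (2.35). In Ly6G tumor it was Ly6e (135), Ly6a (103), Ly6c1 (56.7), Ly6g (39.1), Ly6c2 (6.69) and Ly6i (4.19), again with Ly6d last, and in Ly6G spleen Ly6g (651), Ly6c2 (214), Ly6d (112), Ly6e (109), Ly6a (25.5), Ly6c1 (8.36) and Ly6i (3.74). Some neighbours in these orders had overlapping libraries and are not ranked apart. These were Ly6e with Ly6a in both tumor groups, Ly6c1 with Ly6g and Ly6c2 with Ly6i in Ly6G tumor, Ly6g with Ly6e and Ly6a with Ly6i in Ly6C spleen, and Ly6c2 with Ly6d, Ly6d with Ly6e and Ly6c1 with Ly6i in Ly6G spleen.

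Between tissues, the question was how cells carrying the same label differed between tumor and spleen. Differences are of log2(FPKM + 1), with the standard error of a limma model fitted to 13610 genes and p-values adjusted over all of them (Benjamini-Hochberg, n = 3 per group). They understate the change of genes near 1 FPKM. In Ly6C tumor against Ly6C spleen, 3 of the 7 members passed as higher and 3 as lower at an adjusted p under 0.05. Of all genes tested, 76.7% passed, 46.2% as higher and 30.5% as lower. In Ly6G tumor against Ly6G spleen, 2 members passed as higher and 3 as lower, beside 76.2% of all genes, 51.5% as higher and 24.7% as lower. The libraries of the 2 tissues did not overlap for 3 higher and 3 lower members in Ly6C, beside 47% and 31.5% of all genes, and for 2 higher and 3 lower members in Ly6G, beside 53.2% and 26%. The share of members that passed was thus close to that of genes in general. Ly6d counts among the lower members although its place in the test rested on spleen alone. Scaling moved this split, since of the genes that passed, 60.2% were higher in Ly6C tumor as deposited and 50% with quantile normalization, and 67.6% were higher in Ly6G tumor as deposited and 49.7% with quantile normalization. Between labels, the share higher in Ly6C was 40% in tumor and 72% in spleen as deposited, but 6.99% and 90.5% at equal sums and 53.7% and 47.1% with median-of-ratios factors. The median member changed by -0.28 in Ly6C and 0.26 in Ly6G, beside 0.27 and 0.43 over all genes tested.

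Ly6g, the gene of the label that defines PMN-MDSCs, had 13.3, 11.8 and 13.8 FPKM in Ly6C tumor, against 157, 131 and 209 FPKM in Ly6C spleen. It had 31.5, 54.1 and 31.6 FPKM in Ly6G tumor, against 591, 644 and 717 FPKM in Ly6G spleen. On the deposited scale every tumor library lay below every spleen library, so spleen libraries titled Ly6C held more Ly6g than tumor libraries titled Ly6G. That order was lost relative to leukocyte RNA. As a description, the log2 ratio of Ly6g to the pan-leukocyte genes was 0.018 ± 0.253 in Ly6C spleen and 0.52 ± 0.483 in Ly6G tumor (SD, n = 3 each), with overlapping libraries. Mean FPKM was 12.8 times lower in Ly6C tumor than in Ly6C spleen, a log2 change of -3.55 ± 0.22 (adjusted p = 3.56e-08) that, after scaling by pan-leukocyte genes, became 0.19 (adjusted p = 0.549). For Ly6G tumor against Ly6G spleen the change was -4.06 ± 0.22 (adjusted p = 1.45e-08), and -1.46 (adjusted p = 1.13e-04) after that scaling. Relative to leukocyte RNA, Ly6g thus fell in Ly6G tumor libraries and did not pass in Ly6C tumor libraries, and the difference between these effects passed on that scale (1.66, adjusted p = 0.0143) but not on the deposited scale (0.51, adjusted p = 0.257). That scaling raised the median over all genes to 3.20 in Ly6C and 2.19 in Ly6G. The median difference between these effects became 1.004, and 5206 of 13610 genes passed it as higher in Ly6C and 58 as lower.

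Ly6c2, the Ly6C gene most used by monocytes, had 6.63, 6.35 and 8.16 FPKM in Ly6C tumor, against 246, 272 and 223 FPKM in Ly6C spleen. It had 5.31, 7.80 and 6.98 FPKM in Ly6G tumor, against 236, 237 and 169.5 FPKM in Ly6G spleen. On the deposited scale the 6 tumor libraries stood at one low level and the 6 spleen libraries at one high level, whatever the label. Per leukocyte RNA, Ly6c2 was 1.26 higher in Ly6C tumor than in Ly6G tumor on the log2 scale, beside a median of 1.155 over all genes. The log2 changes between tissues were -4.95 ± 0.17 in Ly6C (adjusted p = 3.16e-10) and -4.80 ± 0.17 in Ly6G (adjusted p = 4.51e-10). They remained negative per leukocyte RNA, at -1.26 (adjusted p = 2.74e-04) and -2.29 (adjusted p = 1.52e-07).

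Ly6c1, the paralog that is known as an endothelial and lymphocyte form of Ly6C, moved the other way. It had 67.5, 82.8 and 86.0 FPKM in Ly6C tumor, against 15.4, 14.6 and 13.1 FPKM in Ly6C spleen. It had 60.4, 64.7 and 44.8 FPKM in Ly6G tumor, against 10.1, 8.48 and 6.47 FPKM in Ly6G spleen. The tissues did not overlap, and Ly6c1 rose by 2.37 ± 0.18 in Ly6C (adjusted p = 1.77e-07) and by 2.62 ± 0.18 in Ly6G (adjusted p = 8.78e-08) on the log2 scale. Within a library, where scaling between libraries drops out, the log2 ratio of Ly6c1 to Ly6c2 was 3.46 ± 0.192 in Ly6C tumor and -4.09 ± 0.112 in Ly6C spleen, and 3.06 ± 0.411 in Ly6G tumor and -4.67 ± 0.132 in Ly6G spleen (SD, n = 3 each). The tissues differed by 7.64 within labels (exact stratified permutation test over 400 arrangements, two-sided p = 0.005, the smallest it can give, adjusted p = 0.0075 over 6 tests).

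Endothelial cells are another known source of Ly6c1. The summed level of the 7 endothelial genes Pecam1, Cdh5, Kdr, Tek, Vwf, Emcn and Cldn5 was 2.30 to 3.53 FPKM in Ly6C tumor and 3.37 to 3.99 in Ly6C spleen, and 4.10 to 25.6 in Ly6G tumor and 4.42 to 7.18 in Ly6G spleen. Of these, 1 gene was listed at 0 throughout Ly6C spleen. The adhesion gene Pecam1 fell by 1.35 ± 0.28 in Ly6C and 0.70 ± 0.28 in Ly6G. The junction genes Cldn5 and Cdh5 stayed under 1 FPKM in every spleen library and so entered the test through tumor, with changes of 1.01 ± 0.43 and 0.75 ± 0.42 in Ly6C and 2.15 ± 0.43 and 2.11 ± 0.42 in Ly6G. Their part in the Ly6c1 change was not tested.

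**Figure D2:**
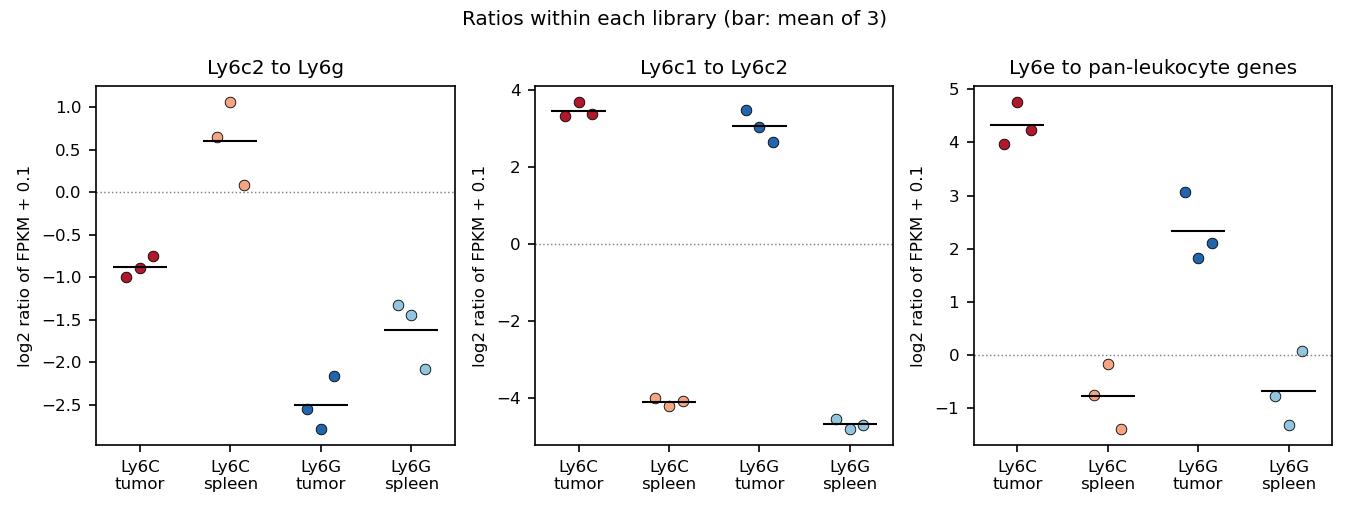
Log2 ratios of FPKM + 0.1 within each library, for Ly6c2 to Ly6g, Ly6c1 to Ly6c2, and Ly6e to the geometric mean of 20 pan-leukocyte genes; points are libraries and bars are means of 3. Ly6c1 exceeds Ly6c2 in all 6 tumor libraries and in none of the 6 spleen libraries, and the Ly6c2 to Ly6g ratio is higher in Ly6C than in Ly6G libraries of the same tissue.

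Ly6a, the gene of Sca-1, had 204, 121 and 275 FPKM in Ly6C tumor, against 2.42, 5.57 and 7.26 FPKM in Ly6C spleen. It had 151, 68.4 and 91.2 FPKM in Ly6G tumor, against 24.9, 27.4 and 24.3 FPKM in Ly6G spleen. Tumor libraries lay above spleen libraries under both labels, and Ly6C spleen was the lowest group. Ly6a rose by 5.06 ± 0.37 in Ly6C (adjusted p = 1.61e-07), a mean FPKM 39.4 times higher in tumor, and by 1.90 ± 0.37 in Ly6G (adjusted p = 5.92e-04), 4.05 times higher. The effects differed by 3.16 ± 0.53 (adjusted p = 0.00240), the 3rd highest such difference of 13610 genes. Of all genes, 21.8% passed this test of the difference, 6.02% with the higher value in Ly6C and 15.8% with the lower. Of the members, 2 of 7 passed, Ly6a and Ly6d, both with the higher value in Ly6C.

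Ly6e, the broadly expressed member, had 219.8, 200.4 and 264 FPKM in Ly6C tumor, against 95.3, 135 and 65.4 FPKM in Ly6C spleen. It had 158, 106 and 140.2 FPKM in Ly6G tumor, against 92.3, 69.3 and 166 FPKM in Ly6G spleen. The Ly6C groups did not overlap and the Ly6G groups did. Ly6e rose by 1.26 ± 0.32 in Ly6C (adjusted p = 0.00344), and its change in Ly6G was 0.38 ± 0.32 (adjusted p = 0.294). The difference between these effects did not pass (0.88, adjusted p = 0.186). In Ly6G the third spleen library decided the call, since without it the change was 0.73 (adjusted p = 0.0371).

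Ly6e was also set against leukocyte RNA, a scale on which the median change of all genes tested was 3.20 in Ly6C and 2.19 in Ly6G. Its log2 ratio to the pan-leukocyte genes was 4.32 ± 0.397 in Ly6C tumor and -0.765 ± 0.611 in Ly6C spleen, and 2.33 ± 0.653 in Ly6G tumor and -0.668 ± 0.703 in Ly6G spleen (SD, n = 3 each). The tissues differed by 4.04 within labels (exact permutation p = 0.005, adjusted p = 0.0075), a test against 0 and not against that shift of all genes. The same ratio, as a description, was 4.06 in Ly6C tumor and -5.09 in Ly6C spleen for Ly6a, and 1.89 in Ly6G tumor and -2.66 in Ly6G spleen. For Ly6c1 it was 2.79 in Ly6C tumor and -3.47 in Ly6C spleen, and 1.09 in Ly6G tumor and -4.28 in Ly6G spleen. On the deposited scale, Krt8 was at 356 to 770.0 FPKM over the tumor libraries and at most 0.263 in spleen. Ly6e did not follow it there in Ly6G, where its tissues overlapped. Ly6a was lower in Ly6C than in Ly6G spleen by -2.22, whereas Krt8 did not pass between the spleen labels (-0.09, adjusted p = 0.782 in limma). Of the 8 epithelial genes, 1 was listed at 0 in every Ly6C tumor library and 3 in every Ly6C spleen library, and none and 2 in Ly6G tumor and Ly6G spleen. The list summed to 753 to 1019.9 FPKM in Ly6C tumor and 0.548 to 0.774 in Ly6C spleen, and to 446 to 753 in Ly6G tumor and 1.18 to 1.89 in Ly6G spleen. Only 2 of the 8, the keratins Krt8 and Krt18, passed the expression filter. The others, Epcam and Cdh1 among them, did not reach 1 FPKM in 3 libraries, so the list as a whole was not high. The 9 fibroblast genes summed to 194 to 369 FPKM in Ly6C tumor and 4.35 to 5.98 in Ly6C spleen, and to 143 to 342 in Ly6G tumor and 8.47 to 16.4 in Ly6G spleen. This sum rested mainly on Col3a1, which averaged 101 FPKM over the 12 libraries, and 6 of the 9 stayed under 1 FPKM in every spleen library. As a description, Col3a1 changed by 7.81 in Ly6C and 7.23 in Ly6G. Acta2 changed by 0.01 and 0.24 and Thy1 by -0.05 and -0.91. The others changed by 1.01 to 3.07 in Ly6C and 1.52 to 2.95 in Ly6G. The part of epithelial and fibroblast genes in the rise of Ly6a, Ly6c1 and Ly6e was not tested.

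Ly6d was nearly absent from tumor. It was at 0.293 FPKM in 1 Ly6C tumor library and listed at 0 in the others, against 18.2, 27.8 and 23.7 FPKM in Ly6C spleen. It was at 0.192 and 0.367 FPKM in 2 Ly6G tumor libraries and listed at 0 in the other, against 75.8, 86.8 and 174 FPKM in Ly6G spleen. Every spleen library was far above every tumor library, and the Ly6G spleen libraries were all above the Ly6C spleen libraries. The log2(FPKM + 1) changes were -4.46 ± 0.28 in Ly6C and -6.49 ± 0.28 in Ly6G, given as a description because Ly6d entered the test through spleen, where it is high. With tumor near 0 under both labels, the difference of these effects restates the gap between the spleen labels. It was 2.03 ± 0.39 (adjusted p = 0.00473), and 1.59 (adjusted p = 0.216) with a pseudocount of 0.1.

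B cell genes moved with Ly6d. The summed level of 10 B cell genes was 5.34 to 8.77 FPKM in Ly6C tumor and 267 to 408 in Ly6C spleen, and 5.48 to 8.58 in Ly6G tumor and 789 to 1354 in Ly6G spleen. Like Ly6d, 7 of the 10 stayed under 1 FPKM in every tumor library. All 10 passed as lower in Ly6C spleen than in Ly6G spleen, and 5 did after scaling by pan-leukocyte genes. Over all genes, 8.59% passed as lower there, and 110 of 13610 after that scaling. The log2 change of the immunoglobulin chain gene Ighm was -6.26 in Ly6C and -7.44 in Ly6G. The B cell receptor components Cd79a and Cd79b changed by -3.95 and -4.51 in Ly6C and by -5.88 and -6.49 in Ly6G. Over the 12 libraries, the gene whose centred log2 profile lay closest to that of Ly6d among 11558 candidates was Cd79b, at a root-mean-square distance of 0.187, followed by Ptprcap (0.366). This look-up was added for Ly6d after its values were seen. Cd79b averaged 0.188 ± 0.0442 FPKM in Ly6C tumor and 26.6 ± 6.83 in Ly6C spleen, and 0.0991 ± 0.0484 in Ly6G tumor and 103 ± 43.6 in Ly6G spleen (SD, n = 3 each). The part of B cells in the Ly6d levels was not tested.

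Ly6i, a close relative of Ly6a, was the lowest member that every library held. It had 1.60, 0.952 and 2.13 FPKM in Ly6C tumor, against 1.22, 4.54 and 1.30 FPKM in Ly6C spleen, and 3.401, 2.55 and 6.61 FPKM in Ly6G tumor, against 1.89, 1.81 and 7.51 FPKM in Ly6G spleen. Tissues overlapped under both labels. The changes were -0.28 ± 0.47 (adjusted p = 0.603) and 0.26 ± 0.47 (adjusted p = 0.626).

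**Figure D3:**
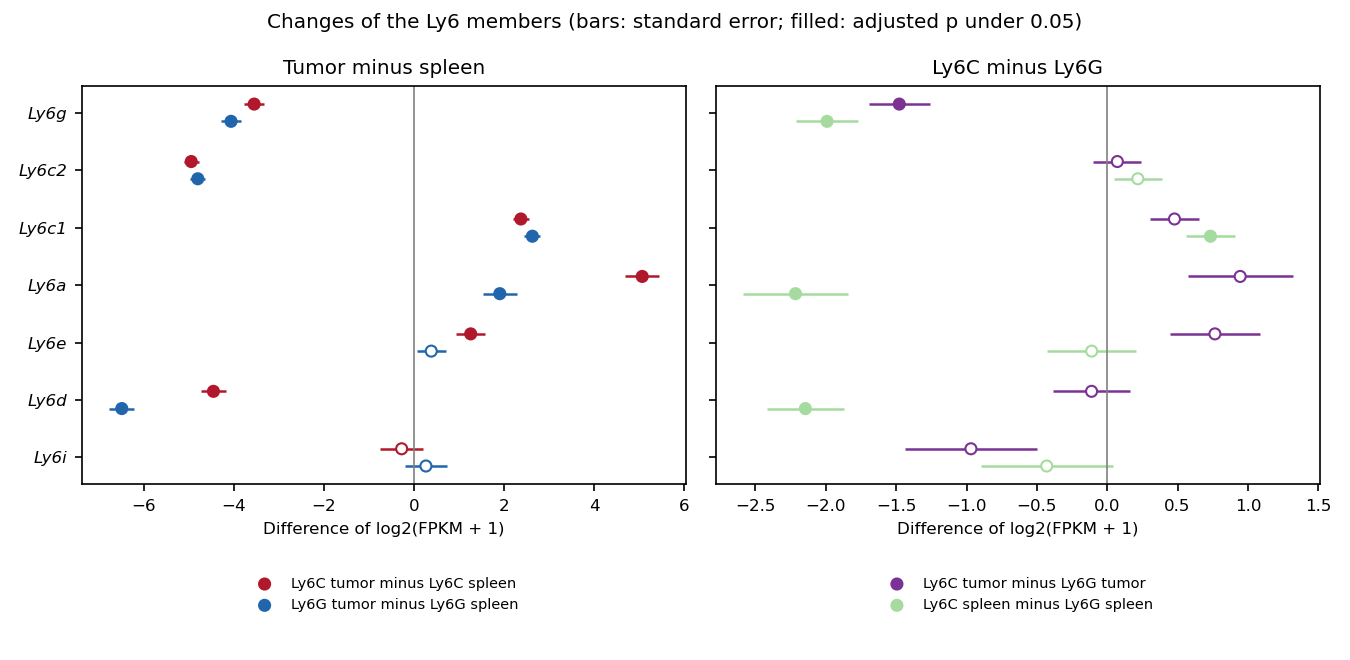
Differences of log2(FPKM + 1) for the 7 members with standard errors, tumor minus spleen on the left and Ly6C minus Ly6G on the right; filled points passed at an adjusted p under 0.05. Ly6a and Ly6d show the widest gaps between the labels' tissue effects (3.16 and 2.03), and the value of Ly6g in Ly6C tumor against Ly6C spleen turned positive (0.19) after scaling by pan-leukocyte genes.

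Between labels, the question was whether libraries titled Ly6C and Ly6G differed in the genes of those antigens. In tumor, 1 of the 7 members passed, as lower in Ly6C, beside 14.5% of all genes, 5.8% as higher and 8.7% as lower. That member was Ly6g, at 12.97 ± 1.03 FPKM in Ly6C tumor, against 39.1 ± 13.02 FPKM in Ly6G tumor (SD, n = 3 each), a log2 difference of -1.48 ± 0.22 (adjusted p = 0.00252). Scaled by pan-leukocyte genes, which were themselves lower in Ly6C tumor for 17 of 20, the difference was -0.31 (adjusted p = 0.361). Ly6c2 did not pass between the tumor labels on the deposited scale, with a difference of 0.07 ± 0.17 (adjusted p = 0.818). Ly6c1 (0.48, adjusted p = 0.0891), Ly6a (0.94, adjusted p = 0.108), Ly6e (0.77, adjusted p = 0.124), Ly6i (-0.97, adjusted p = 0.181) and Ly6d (-0.11, adjusted p = 0.826) did not pass. Pan-leukocyte scaling put 10513 of 13610 genes higher in Ly6C tumor and 136 lower, with a median of 1.155 over all genes. It turned the member count to 4 higher in Ly6C tumor and 0 lower. These were Ly6c2 (1.26, adjusted p = 9.56e-04), Ly6c1 (1.71, adjusted p = 4.40e-04), Ly6a (2.18, adjusted p = 4.21e-04) and Ly6e (2.0, adjusted p = 4.24e-04). The libraries of the 2 labels did not overlap for Ly6c1 and Ly6e, higher in Ly6C, and for Ly6g and Ly6i, lower in Ly6C, beside 24.1% and 18.2% of all genes.

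In spleen, 1 member passed as higher in Ly6C and 3 as lower, beside 30.6% of all genes, 22.1% as higher and 8.59% as lower. The same 4 members had libraries that did not overlap between labels, beside 29% of all genes that lay higher and 13% that lay lower. Ly6g was at 166 ± 40.0 FPKM in Ly6C spleen, against 651 ± 63.6 FPKM in Ly6G spleen, a difference of -1.99 ± 0.22 (adjusted p = 1.55e-04). Ly6a was lower in Ly6C spleen by -2.22 ± 0.37 (adjusted p = 0.00129) and Ly6d by -2.15 ± 0.28 (adjusted p = 3.29e-04). Ly6c1 was higher in Ly6C spleen, at 14.4 ± 1.16 FPKM against 8.36 ± 1.84 FPKM in Ly6G spleen, by 0.73 ± 0.18 (adjusted p = 0.00911), a call that quantile normalization (0.50, adjusted p = 0.059) and pan-leukocyte scaling (0.63, adjusted p = 0.570) ended. Ly6c2, at 247 ± 24.8 FPKM in Ly6C spleen against 214 ± 38.6 FPKM in Ly6G spleen, differed by 0.22 ± 0.17 (adjusted p = 0.380), and with libraries scaled to an equal sum by 0.54 (adjusted p = 0.0186). Ly6e (-0.11, adjusted p = 0.860) and Ly6i (-0.43, adjusted p = 0.551) did not pass.

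On the deposited scale Ly6g passed between labels in both tissues and Ly6c2 in neither. On the pan-leukocyte scale this was the other way round in tumor, where the median gene was itself 1.155 higher in Ly6C. In spleen on that scale Ly6g passed and Ly6c2 did not. A ratio within a library does not depend on that choice. The log2 ratio of Ly6c2 to Ly6g within a library was -0.876 ± 0.121 in Ly6C tumor, against -2.50 ± 0.311 in Ly6G tumor (SD, n = 3 each). It was 0.600 ± 0.487 in Ly6C spleen, against -1.62 ± 0.407 in Ly6G spleen. It was higher in Ly6C by 1.92 within tissues (exact stratified permutation p = 0.005, adjusted p = 0.0075), and lower in tumor by -1.18 within labels (exact permutation p = 0.005, adjusted p = 0.0075). Ly6g exceeded Ly6c2 in all 3 libraries of Ly6C tumor. The ratio of Ly6c1 to Ly6c2 was higher in Ly6C by 0.49 within tissues (exact permutation p = 0.015, adjusted p = 0.018, but adjusted p = 0.075 with a replicate block), and Ly6e to pan-leukocyte genes by 0.95 (exact permutation p = 0.085). Of 14 other monocyte genes, 6 passed as higher in Ly6C spleen and 1 as lower, and 4 and 0 after pan-leukocyte scaling. Fibronectin (Fn1) was higher in Ly6C spleen by 4.82 ± 0.59, the pattern receptor subunit Cd14 was lower by -0.86 ± 0.24, and the chitinase-like Chil3 did not pass (0.32 ± 0.41). In tumor, 1 of 14 passed as higher and 2 as lower, and 11 and 1 after that scaling. Over all genes, 5.8% passed as higher and 8.7% as lower in tumor, and 10513 and 136 of 13610 after that scaling. In spleen these were 22.1% and 8.59%, and 118 and 110 genes after that scaling. The scaled monocyte count in tumor is thus near the background. Of 14 neutrophil genes, 0 passed as higher and 10 as lower in Ly6C tumor than in Ly6G tumor, and 0 and 5 in Ly6C spleen against Ly6G spleen. That scaling made these 1 and 2 in tumor, and 0 and 2 in spleen.

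Along the chromosome, 12 of the 25 annotated genes from Ly6d to Ly6g were tested, which adds 5 neighbours to the members. Only the members Ly6e, Ly6a and Ly6c1 were higher in tumor at the adjusted p of 0.05, Ly6e under the Ly6C label alone (its difference between labels did not pass, as above). They did not lie side by side. Ly6i and the pseudogene Gm28069 stood between them, with changes of -0.28 and -0.70 in Ly6C and 0.26 and -0.84 in Ly6G. At the Ly6g end, Ly6c2, the transcribed pseudogene I830127L07Rik and Ly6g fell together under both labels. I830127L07Rik averaged 3.95 ± 0.571 FPKM in Ly6C tumor and 104 ± 4.87 in Ly6C spleen, and 4.75 ± 0.490 in Ly6G tumor and 193 ± 73.9 in Ly6G spleen (SD, n = 3 each), with log2 changes of -4.41 ± 0.21 and -5.01 ± 0.21. At the other end, Ly6d and Ly6k were also lower in tumor, but both entered the test through spleen. Ly6k was near the floor, with a mean of 0.524 FPKM over the 12 libraries. As a description, it changed by -0.46 in Ly6C and -1.39 in Ly6G.

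**Figure D4:**
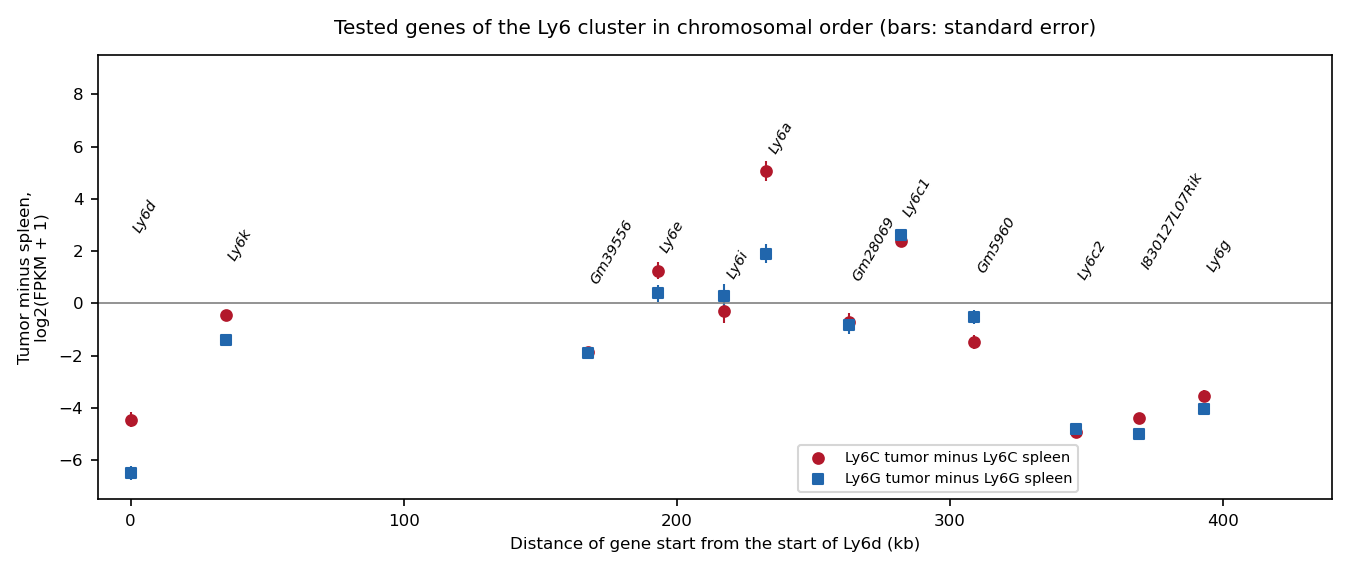
Tumor minus spleen difference of log2(FPKM + 1), with standard error, for the 12 tested genes of the cluster against the distance of each gene's start from the start of Ly6d in kb. Ly6e, Ly6a and Ly6c1 lie above 0 in the middle of the cluster, Ly6i lies near 0 among them, and Ly6c2, I830127L07Rik and Ly6g lie between -5.01 and -3.55 at its right end.

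Other genes of the Ly6/uPAR superfamily were mostly silent. Of 35 listed relatives, 34 were matched and 7 passed the filter. Of these 7, 3 stayed under 1 FPKM in every tumor library and 1 in every spleen library. On the deposited scale 1 was higher and 6 were lower in tumor under each label, and after scaling by pan-leukocyte genes 2 were higher and 3 lower in Ly6C, and 2 higher and 5 lower in Ly6G. Over all genes, 46.2% were higher and 30.5% lower in Ly6C as deposited, and 51.5% and 24.7% in Ly6G. Pan-leukocyte scaling made these 12386 and 494 of 13610 genes in Ly6C, and 12030 and 569 in Ly6G. Cd177, a neutrophil surface protein, had a mean of 8.94 ± 2.30 FPKM in Ly6C tumor and 1517 ± 381 in Ly6C spleen, and 30.9 ± 10.7 in Ly6G tumor and 1463 ± 287 in Ly6G spleen (SD, n = 3 each), with log2 changes of -7.25 and -5.55. Plaur, the urokinase receptor, fell by 1.503 ± 0.19 in Ly6C tumor and by 0.48 ± 0.19 in Ly6G tumor. Lypd3, a relative found in stratified epithelia, entered the test through tumor, at 5.41 to 10.9 FPKM in Ly6C tumor and 4.31 to 5.96 in Ly6G tumor, against at most 0.0926 in spleen. Cd177 and Plaur were also the 2 relatives that passed between tumor labels, lower in Ly6C by -1.66 ± 0.28 and -1.003 ± 0.19. Between spleen labels 2 of 7 passed, both as lower in Ly6C. Over all genes, 8.7% passed as lower between tumor labels and 8.59% between spleen labels.

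Of 28 genes that build and attach the GPI anchor, 26 were tested, and 2 of these stayed under 1 FPKM in every spleen library. In Ly6C tumor 12 were higher and 6 lower than in Ly6C spleen, with a median of 0.05, and in Ly6G tumor 15 were higher and 5 lower, with a median of 0.38. Of all genes, 46.2% were higher and 30.5% lower in Ly6C tumor, and 51.5% and 24.7% in Ly6G tumor, so these counts are near the background. Median-of-ratios scaling made these 9 and 8 in Ly6C, and 9 and 9 in Ly6G, and scaling by pan-leukocyte genes 26 and 0 in Ly6C, and 24 and 0 in Ly6G. Over all 13610 genes, median-of-ratios scaling gave 5490 and 5002 in Ly6C, and 5370 and 4923 in Ly6G. Pan-leukocyte scaling gave 12386 and 494 in Ly6C, and 12030 and 569 in Ly6G. Pigs, a subunit of the transamidase that joins the anchor to proteins, rose by 0.65 ± 0.14 and 1.04 ± 0.14. Pigp, a subunit of the enzyme of the first step, rose by 2.43 ± 0.21 and 1.53 ± 0.21. Mppe1, which trims the anchor in the secretory pathway, fell by 2.94 ± 0.09 and 2.43 ± 0.09. Dpm3, part of the dolichol-phosphate-mannose synthase, rose by 0.90 ± 0.22 in Ly6C tumor, and its change was 0.38 ± 0.22 in Ly6G tumor. Between tumor labels 0 passed of 26 in limma, 6 had an unadjusted p under 0.05, and after pan-leukocyte scaling 26 were higher. Over all genes, 14.5% passed between tumor labels, and 10513 of 13610 were higher in Ly6C after that scaling. Between spleen labels 6 were higher and 1 lower in Ly6C, 12 and 1 at equal sums, 3 and 4 with median-of-ratios factors, and 0 and 0 after pan-leukocyte scaling. Over all 13610 genes, 3002 were higher and 1169 lower as deposited, and 5380 and 567 at equal sums. Median-of-ratios factors gave 1914 and 2147, and pan-leukocyte scaling 118 and 110.

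Interferon response genes did not move as a block with Ly6a and Ly6e. Of 30 listed genes 27 were tested. In Ly6C tumor 5 were higher and 11 lower than in Ly6C spleen, with a median of -0.24, and in Ly6G tumor 5 were higher and 10 lower, with a median of -0.22. Over all genes, 46.2% were higher and 30.5% lower in Ly6C tumor, and 51.5% and 24.7% in Ly6G tumor. After scaling by pan-leukocyte genes all 27 interferon genes were higher in tumor under each label. So were 12386 of 13610 genes in Ly6C and 12030 in Ly6G, so this count is near the background. Bst2, the membrane tether of budding viruses, averaged 315 ± 33.4 FPKM in Ly6C tumor and 34.7 ± 21.3 in Ly6C spleen, and 233 ± 31.1 in Ly6G tumor and 25.4 ± 12.9 in Ly6G spleen (SD, n = 3 each). It rose by 3.34 ± 0.41 and 3.24 ± 0.41. The transcription factor Irf1 rose by 2.06 ± 0.35 in Ly6C tumor, and its change was 0.51 ± 0.35 in Ly6G tumor. The ubiquitin-like modifier Isg15 did not pass (0.82 ± 0.40 and 0.41 ± 0.40). The largest falls were of Cmpk2, a mitochondrial nucleotide kinase, by 2.19 ± 0.15 in Ly6C tumor, and of Oas3, an enzyme of antiviral RNA decay, by 1.47 ± 0.13 in Ly6G tumor.

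Between labels, the interferon genes that passed on the deposited scale were all lower in Ly6C. In tumor 0 of 27 were higher and 12 lower in Ly6C, and in spleen 0 were higher and 14 lower in Ly6C, where Bst2 differed by 0.34 ± 0.41 without passing and the difference of Irf1 was -1.42 ± 0.35. Over all genes, 5.8% were higher and 8.7% lower in tumor, and 22.1% and 8.59% in spleen. Scaling by pan-leukocyte genes turned the interferon count in tumor to 7 higher and 0 lower, beside 10513 and 136 of 13610 genes. It left 2 lower in spleen, beside 110 of all genes. Equal sums gave 3 higher and 11 lower in spleen, beside 5380 and 567 of all genes. Ly6a was lower in Ly6C spleen as well and Ly6e did not pass there.

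Genes with profiles most like a member's over the 12 libraries were found by the root-mean-square distance between centred log2(FPKM + 1) profiles. For Ly6g, whose own profile had a root-mean-square size of 2.11, they were the iron exporter Slc40a1 (0.361), the formyl peptide receptor Fpr2 (0.389), the leukocyte surface peptide Cd52 (0.412), Mcemp1 (0.464) and Hcst (0.486). Fpr2 averaged 10.9 FPKM in Ly6C tumor and 173 in Ly6C spleen, and 36.9 in Ly6G tumor and 383 in Ly6G spleen. For Ly6c2 they were Ear2 (0.313), the acute-phase protein Orm1 (0.324), the phagocyte oxidase subunit Cybb (0.326), lysozyme Lyz2 (0.342) and Parvg (0.350). Cybb averaged 2.79 FPKM in Ly6C tumor and 179 in Ly6C spleen, and 3.28 in Ly6G tumor and 108 in Ly6G spleen. For Ly6e, whose profile was flat (root-mean-square size 0.612), they were the ribosomal pseudogenes Rps13-ps4 (0.220) and Rps13-ps1 (0.221), Emc6 (0.222), Imp3 (0.229) and Nme1 (0.234). For the members that were higher in tumor, the likeness was added after their values were seen. Nearest to Ly6a (root-mean-square size 1.986) were the small GTPase gene Rhoc (0.518), Igfbp6 (0.656), Cnn3 (0.682), platelet factor 4 (Pf4, 0.685) and Hmgn1 (0.708). Nearest to Ly6c1 (root-mean-square size 1.299) were Raet1d (0.201), the poly(A)-binding protein gene Pabpc1 (0.204), Selenbp1 (0.217), Eif2s1 (0.217) and Twsg1 (0.220). These distances describe the 12 libraries and carry no test.

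**Figure D5:**
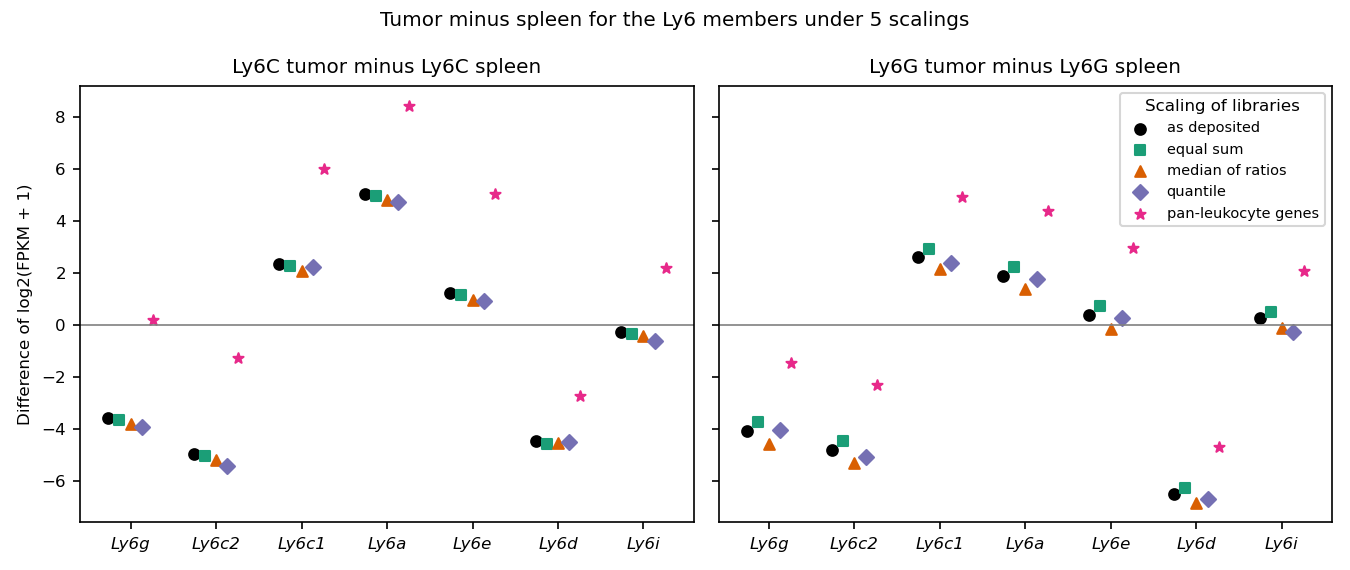
Tumor minus spleen difference of log2(FPKM + 1) for each member under 5 scalings of the libraries, for Ly6C on the left and Ly6G on the right. Values as deposited, at equal sum, by median of ratios and by quantile normalization lie close together, while scaling by pan-leukocyte genes lifts all 7 members; Ly6g in Ly6C then crosses 0 to 0.19 and Ly6i in Ly6C to 2.21, and Ly6e (-0.13) and Ly6i (-0.12) in Ly6G fall below 0 with median of ratios, as does Ly6i with quantile normalization (-0.26).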

How the data were processed

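RNA from 12 mouse samples was sequenced as paired-end libraries, per the labels' protocols. HISAT2 2.0.5, featureCounts 1.5.0-p3 and the build GRCm38 are listed in the submitters' processing notes, with no role. The deposited matrix holds FPKM, computed by the authors per gene and library. Neither the tool nor the annotation behind them is named in the sources used here. Groups came from the sample titles. Of 54674 entries, 570 assembled loci that name no gene (0.463% to 1.04% of FPKM) were left out. Symbols and coordinates came from GENCODE M21, and promoter windows from RefSeq (GRCm38.p6). The identities and shared 50-base stretches were computed from GENCODE transcripts.

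The 13610 genes that reached 1 FPKM in 3 or more of the 12 libraries were tested on log2(FPKM + 1) in 1 limma 3.58.1 model (R 4.3.3) of 4 group means with a variance trend, two-sided, with Benjamini-Hochberg adjustment over all genes and a threshold of 0.05. Ratios within a library used FPKM + 0.1 and an exact permutation of libraries within strata (Python 3.11.15). Named genes were all members, and of each list the members with the highest mean and the largest rise and fall that passed. The members, lists and tests were chosen with earlier results of these data known, so a pattern those results showed is not independent support. Replicate numbers were not used as pairs in the main model, and the labels do not say whether they pair samples. Correlations of deviations between same-numbered libraries ran from -0.36 to 0.279. Differently numbered libraries were not compared in this way, so these values cannot decide the point. The model was tested on simulated data. Alternatives were pseudocounts of 0.1 and 5, other filters, 5 further scalings, fits of 2 groups, a replicate block, no trend and leaving libraries out.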

Additional observations from a re-analysis of the deposited data

Results flagged for a closer look

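The tissue effect on 2 members differed between the labels by a test of that difference in limma. For Ly6a the tumor minus spleen change was 5.06 in Ly6C and 1.90 in Ly6G, a difference of 3.16 ± 0.53 (adjusted p = 0.00240), higher in all 3 Ly6C tumor libraries than in Ly6C spleen and in all 3 Ly6G tumor libraries than in Ly6G spleen. Ly6C spleen held 2.42 to 7.26 FPKM and Ly6G spleen 24.3 to 27.4 FPKM. For Ly6d the changes were -4.46 in Ly6C and -6.49 in Ly6G, a difference of 2.03 ± 0.39 (adjusted p = 0.00473) that a pseudocount of 0.1 took to 1.59 (adjusted p = 0.216). Ly6d entered the test through spleen, and all 6 tumor libraries held at most 0.367 FPKM, so this difference restates the gap between the spleen labels. The Ly6C minus Ly6G difference was -0.11 between tumor labels and -2.15 between spleen labels.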

How the results depend on the processing

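The counts of members that passed were the same with both tumor libraries of highest mitochondrial share left out (added after the data were seen) and with each library left out in turn, apart from Ly6G tumor against Ly6G spleen (5 to 6). They moved to 4 under pan-leukocyte scaling and 2 in a fit of only the 2 groups for Ly6C tumor against Ly6G tumor, and to 4 under pan-leukocyte scaling and 1 with a pseudocount of 0.1 for the difference of tissue effects. Under pan-leukocyte scaling 7 passed for Ly6G tumor against Ly6G spleen, against 5 as deposited, and between spleen labels 3 passed there and with quantiles and 5 at equal sums, against 4. Over all genes, 12599 of 13610 passed for Ly6G tumor against Ly6G spleen under pan-leukocyte scaling. Of the tissue changes that passed as deposited, that of Ly6g in Ly6C alone had the opposite sign under an alternative, 0.1915 under pan-leukocyte scaling. The cause was not tested.

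Pan-leukocyte scaling also gave Ly6i 2.214 in Ly6C tumor against Ly6C spleen, and differences of tissue effects of 1.076 for Ly6c1, 1.027 for Ly6c2 and 0.1307 for Ly6i. Median-of-ratios factors gave -0.1312 for Ly6e and -0.1229 for Ly6i in Ly6G between tissues, -0.01076 for Ly6c2 between spleen labels and 0.09045 for its difference of tissue effects. Quantile normalization gave -0.2562 for Ly6i in Ly6G. Equal sums gave -0.03424 for Ly6c2 between tumor labels and 0.2112 for Ly6e between spleen labels, and -0.04896 and 0.02912 with S100a8 and S100a9 removed. Without the libraries of highest mitochondrial share, Ly6d between tumor labels was 0.05823 and Ly6i in Ly6G -0.05414.

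With each library left out, values that crossed 0 ran from -0.5058 to 0.1546 (Ly6i, Ly6C between tissues), -0.05414 to 0.7875 (Ly6i, Ly6G between tissues), -0.06472 to 0.1753 (Ly6c2, tumor labels), -0.3864 to 0.2366 (Ly6e, spleen labels), -0.8622 to 0.0961 (Ly6i, spleen labels) and -0.2821 to 0.01354 (Ly6c2, difference of effects). Ly6e to pan-leukocyte genes ran from 0.7838 to 1.133 between labels and passed without the third Ly6C spleen library (adjusted p = 0.045) or the third Ly6G spleen library (adjusted p = 0.03) in the exact permutation test.

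Over all genes, 10443 and 10367 passed between tissues in Ly6C and Ly6G, and 6694 and 6648 with a filter of 5 FPKM, which left 8354 to test. Between tumor labels 1974 passed, 746 to 2618 with a library left out (750 without the third and 763 without the second Ly6C tumor library, 746 without the third Ly6G tumor library), 260 without the libraries of highest mitochondrial share and 10649 under pan-leukocyte scaling. Between spleen labels 4171 passed, 228 under that scaling and 2586 in the 2-group fit. For the difference of effects 2972 passed, 4795 at equal sums, 5264 under pan-leukocyte scaling and 1417 without those libraries. The replicate block took equal numbers as pairs, which the labels neither state nor exclude. It left the members' counts at 6, 5, 1, 4 and 2, and the Ly6c1 to Ly6c2 difference between labels at 0.4902 (adjusted p = 0.075, exact permutation). Scaling moved the median of all genes in Ly6C and Ly6G tumor against spleen to 0.20 and 0.68 at equal sums, 0.05 and 0.05 with median-of-ratios factors and -0.0045 and -0.02 with quantiles. Depth is unknown, so no limit of detection was set for Ly6d.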
